A study of Mus musculus with 36 samples.

Results

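The 78 genes described here encode the proteins that the symbols Mrpl and Mrps name, the protein subunits of the mitochondrial ribosome. They were chosen by symbol among the 56184 rows of the authors' count table: Mrpl or Mrps followed by digits, with 6 pseudogene symbols left out and a mean of at least 1 CPM (a gene's counts scaled by the size of its library) over 36 mouse brain libraries. All 78 passed the filter on low counts that left 16255 genes for testing, and no member fell under 37 counts in any library. By what the protein is part of, 51 belong to the large subunit and 26 to the small subunit. That count follows structure rather than symbol, since Mrps30 and Mrps18a are large subunit proteins. Mrps36 belongs to neither: despite its name it is a subunit of the α-ketoglutarate dehydrogenase complex of the tricarboxylic acid cycle. Of the 77 others, 45 have a bacterial counterpart and 32 are particular to mitochondria.

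Mitochondria carry their own ribosome, which translates the few membrane proteins encoded by mitochondrial DNA, all of them parts of the respiratory chain or the ATP synthase. Its ribosomal RNAs, mt-Rnr1 and mt-Rnr2, come from mitochondrial DNA, whereas every one of its proteins is encoded in the nucleus, made in the cytosol and imported. Neurons depend on oxidative phosphorylation, so the brain is among the tissues affected when this ribosome fails.

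The brain tissue was taken from mice with intact Gpt2 (wild type, WT) and from mice whose Gpt2 was knocked out (KO). Gpt2 encodes the mitochondrial alanine transaminase, which makes alanine and α-ketoglutarate from pyruvate and glutamate. Mice were given vehicle or, at 600 mg per kg, dm-αKG by the intraperitoneal route; dm-αKG is a dimethyl ester of α-ketoglutarate. Tissue was frozen on postnatal day 19. There were 10 wild-type and 10 knockout mice on vehicle (below WT-Veh and KO-Veh) and 8 of either genotype on dm-αKG (WT-aKG and KO-aKG), which the submitters call biological replicates. The sources used here name neither strain, form of the knockout allele, sex nor brain region.

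The libraries held between 5768225 and 13267397 counts. Gpt2 itself was at 30.2 ± 5.61 CPM (SD, n = 10) in WT-Veh, 32.3 ± 3.94 (n = 8) in WT-aKG, 2.04 ± 0.837 (n = 10) in KO-Veh and 2.37 ± 0.701 (n = 8) in KO-aKG, and no KO library reached a WT library. Markers of brain regions varied widely between libraries. The cerebellum score, a mean of log2 CPM over markers, exceeded its average by over 1 in 9 libraries (3 of WT-Veh, 4 of WT-aKG, 1 each of KO-Veh and KO-aKG), and the summed level of all 20 markers ran from 310 to 6004 CPM in WT-Veh, 206 to 5417 in WT-aKG, 176 to 6479 in KO-Veh and 194 to 1955 in KO-aKG. Xist exceeded the Y-linked Ddx3y in 2, 5, 2 and 4 libraries of the same groups. CPM here is scaled by the trimmed mean of M-values (TMM). A gene is called where edgeR's quasi-likelihood test, fitted to all 4 groups together, gave an adjusted p (Benjamini-Hochberg, 16255 genes) under 0.05.

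The members were expressed at moderate levels. Before scaling their mean levels ran from 7.15 CPM for Mrps18b, 7.91 for Mrpl9 and 8.48 for Mrps27 up to 118 for Mrps16, 128 for Mrpl20 and 150 for Mrpl53. Per kilobase of the longest annotated transcript, Mrpl53 (211 CPM per kb), Mrpl20 (158) and Mrpl41 (119) stood highest and Mrpl19 (2.98), Mrps31 (3.60) and Mrpl35 (4.10) lowest. Most proteins of a ribosome are present in 1 copy, and the transcripts counted here were not at equal levels on this scale. Where oligo-dT capture favours 3′ ends, counts do not scale with length, and the ranking carries that limit. Within groups, the SD of a member's log2 CPM had a median of 0.18, against 0.36 over all tested genes. Genes with few counts vary more on this scale, and no set of genes of like abundance was compared. Among members the SD differed by gene. It was smallest for Mrpl40 (0.11) and largest for Mrpl53 (0.35).

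With vehicle, 15 of the 78 genes rose in Gpt2 knockout brain and none fell. That is 19.2% of the members called higher, against 2.6% of all tested genes, and 0% called lower against 1.72%. The shift was shallow and broad: 70 members lay above 0, as did 46.7% of all genes, and the median log2 difference was 0.17, a fold of 1.12, against -0.02 over all genes. At an unadjusted p under 0.05, 36 members were higher and 0 lower, where 10% of all genes were higher and 11% lower. By subunit the calls were 9 of 51 large and 6 of 26 small. By origin they were 12 of the 45 proteins with a bacterial counterpart and 3 of the 32 particular to mitochondria, with medians of 0.18 and 0.14; the difference between these classes was not tested.

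Mrpl21, a large subunit protein of bacterial descent, had the largest difference. It ranged from 23.5 to 31.2 CPM in WT-Veh with a median of 27.3, and from 31.6 to 47.8 in KO-Veh with a median of 39.0. The ranges of both groups did not overlap. The log2 difference was 0.51 ± 0.08 (SE; edgeR adjusted p = 3.66e-05). Mrpl19, another large subunit protein with a bacterial counterpart, ran from 10.5 to 13.6 CPM in WT-Veh (median 12.1) and from 14.2 to 19.9 in KO-Veh (median 17.4), again without overlap. Its log2 difference was 0.50 ± 0.08 (edgeR adjusted p = 0.000126). These 2 were the only members whose vehicle groups did not overlap, and 0.24% of all tested genes were higher in KO-Veh without overlap.

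**Figure D1:**
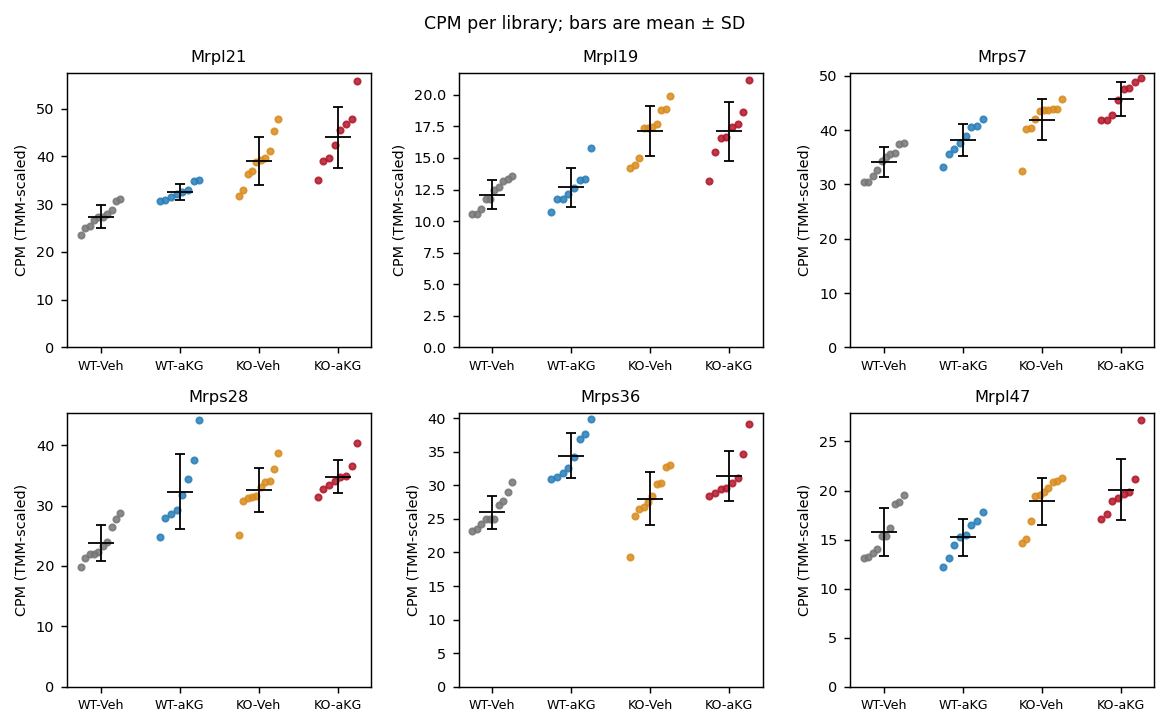
TMM-scaled CPM on the vertical axis for Mrpl21, Mrpl19, Mrps7, Mrps28, Mrps36 and Mrpl47, with 1 point per library (placed in ascending order within each group) and bars for mean ± SD (n = 10, 8, 10 and 8). All 10 KO-Veh libraries lie above the highest WT-Veh library for Mrpl21 and Mrpl19, and all 8 WT-aKG libraries lie above the highest WT-Veh library for Mrps36.

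The other called proteins of the large subunit were Mrpl30 (0.47), Mrpl27 (0.42), Mrpl23 (0.41), Mrpl32 (0.41), Mrpl22 (0.34), Mrpl58 (0.34) and Mrpl16 (0.26), each value a log2 difference between KO-Veh and WT-Veh. Mrpl27 sat between 37.1 and 50.6 CPM in WT-Veh (median 39.9) and between 46.3 and 62.5 in KO-Veh (median 58.9), with 8 of 10 KO-Veh libraries above the highest WT-Veh one. Mrpl23 lies near the exit of the peptide tunnel. It ran from 21.3 to 32.9 CPM in WT-Veh and from 29.4 to 44.5 in KO-Veh, and 9 of 10 KO-Veh libraries exceeded the highest WT-Veh library. Mrpl32, which must be cut by the inner-membrane m-AAA protease before it can join the ribosome, ran from 26.6 to 45.2 CPM and from 37.2 to 59.98 in the same groups. Mrpl30 was among the more abundant, at 46.7 to 85.1 CPM in WT-Veh and 69.2 to 106 in KO-Veh. Mrpl58 is a peptidyl-tRNA hydrolase built into the large subunit, which can free peptides from stalled ribosomes. It was at 28.5 to 38.6 CPM in WT-Veh and 30.1 to 45.0 in KO-Veh (edgeR adjusted p = 0.00382).

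In the small subunit, Mrps28 (0.46), Mrps10 (0.36), Mrps18b (0.31), Mrps7 (0.30), Mrps14 (0.28) and Mrps23 (0.22) were called, again as log2 differences. Mrps28 ran from 19.8 to 28.8 CPM in WT-Veh (median 22.8) and from 25.2 to 38.7 in KO-Veh (median 32.3), so that only 1 KO-Veh library fell within the WT-Veh range (edgeR adjusted p = 0.00137). Mrps7 binds the ribosomal RNA in the head of the small subunit. It ran from 30.4 to 37.6 CPM in WT-Veh and from 32.5 to 45.6 in KO-Veh, and all KO-Veh libraries but the lowest exceeded the highest WT-Veh one (edgeR adjusted p = 0.00291). Mrps18b has 2 relatives among the members, and neither was called: Mrps18a differed by 0.18 ± 0.08 (SE; adjusted p = 0.227) and Mrps18c by 0.22 ± 0.10 (adjusted p = 0.190) in the same edgeR test. Mrps18b is the least abundant of the called genes, at 5.27 to 9.01 CPM in WT-Veh and 6.56 to 9.004 in KO-Veh, and its ranges overlapped widely.

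At the other end stood Mrpl44 (-0.19 ± 0.13, SE), Mrps6 (-0.12 ± 0.12) and Mrpl55 (-0.11 ± 0.09), none of them called. The value of Mrpl44 rests on 1 library: WT-Veh replicate 1 held 44.3 CPM and the next WT-Veh library 21.6, and without that library the log2 difference was -0.01 ± 0.09. That library had the highest cerebellum score of all 36 (7.41). Other libraries with high scores held less Mrpl44. KO-Veh replicate 7 (score 7.37) held 24.0 CPM, WT-Veh replicate 9 (7.26) held 21.1 and WT-Veh replicate 6 (6.87) held 19.1. Within groups, with WT-Veh replicate 1 included, Mrpl44 rose with the score (slope 0.11, edgeR adjusted p = 8.17e-05). The part of the score in the high value was not tested.

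**Figure D2:**
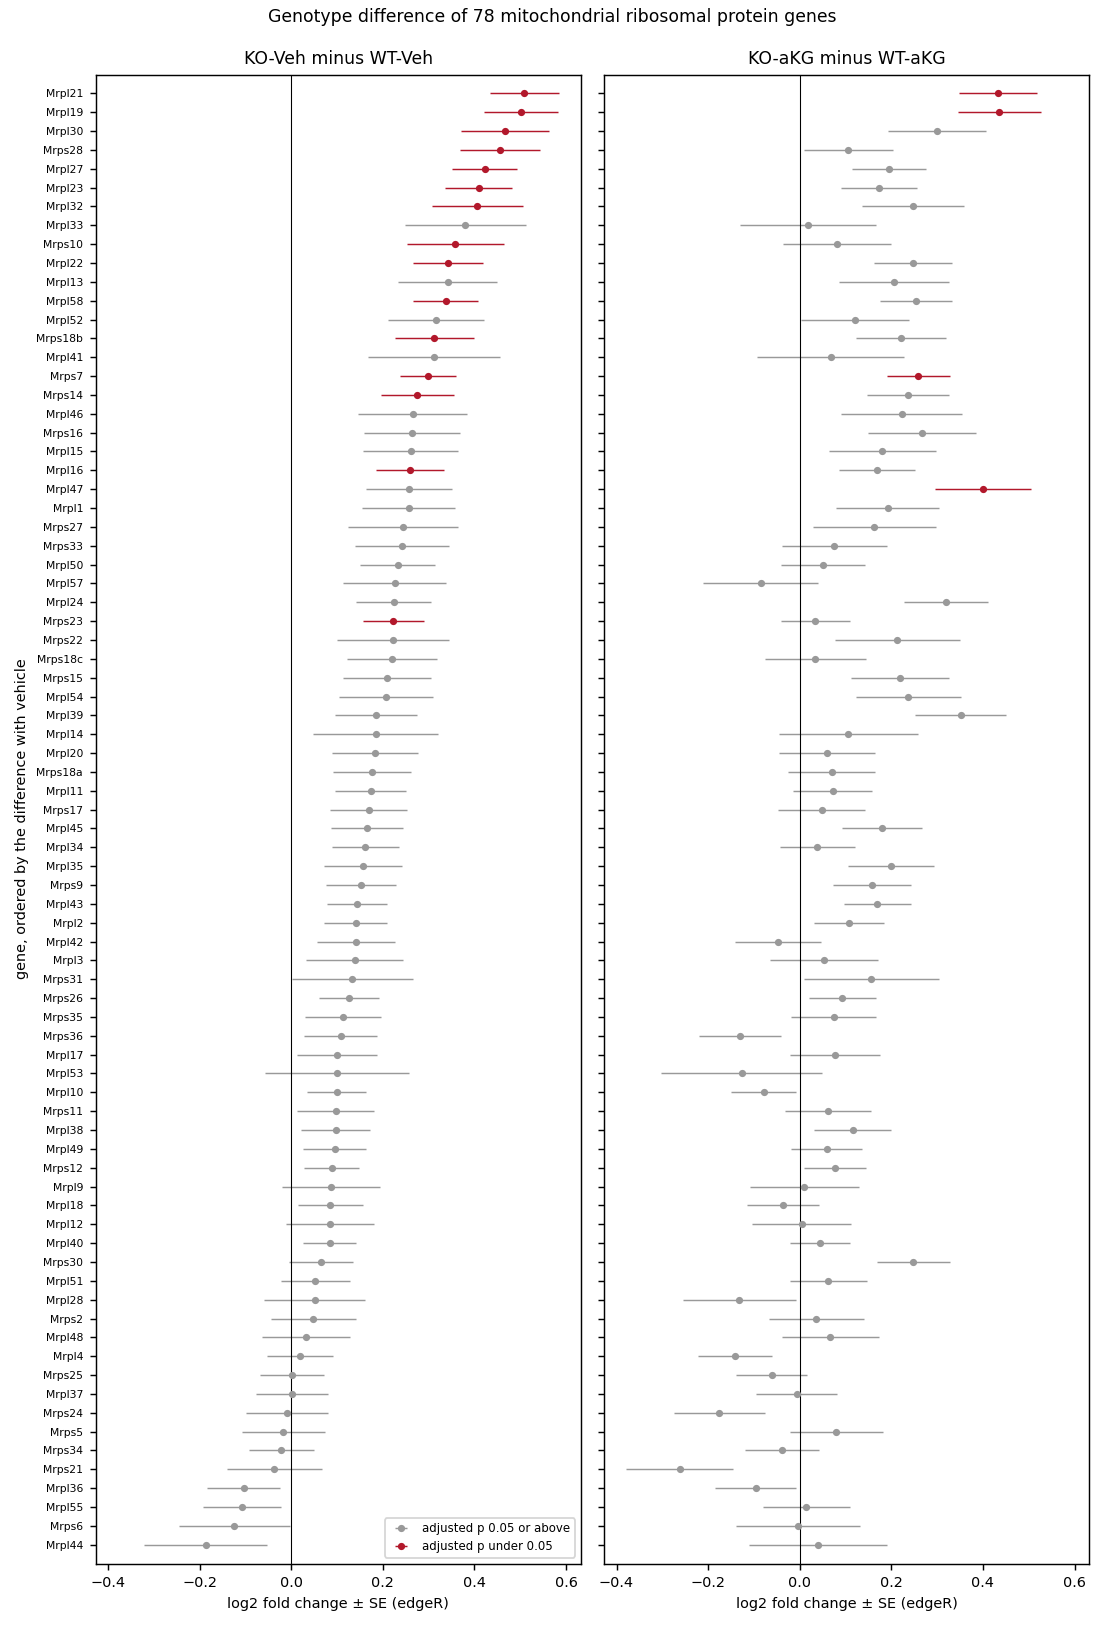
Log2 fold change ± SE (horizontal axis) of each of the 78 genes (vertical axis, ordered by the vehicle difference) between KO-Veh and WT-Veh on the left and between KO-aKG and WT-aKG on the right, with called genes in red. With vehicle 15 genes are red and 70 lie right of 0; with dm-αKG 4 are red and 63 lie right of 0.

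Of the 15 genes called with vehicle, 10 stayed called whichever single library was left out: Mrpl19, Mrpl21, Mrpl22, Mrpl23, Mrpl27, Mrpl30, Mrpl32, Mrpl58, Mrps28 and Mrps7. The calls of Mrpl16, Mrps10, Mrps14, Mrps18b and Mrps23 each ended without certain libraries. Mrpl19, Mrpl21, Mrpl23 and Mrpl30 stayed called under all 13 other settings tried. KO-Veh replicate 9 was lowest of all 36 libraries in the summed level of the members (2688 CPM). It also had the largest TMM factor of all 36 (1.35), which lowers its scaled CPM, and the part of that factor was not tested. Without this library 20 members and 580 of all genes were called higher, against 15 and 422 with it. Fitted on WT-Veh and KO-Veh alone edgeR called 9 members, and limma on log2 of the authors' deposited CPM, which carries no TMM scaling, called 4. The numbers of all genes called in these last fits are not given here.

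Gadd45gip1, Aurkaip1, Dap3, Ptcd3 and Chchd1 are mitochondrial ribosomal proteins with other symbols. Gadd45gip1, which sits by the tunnel exit of the large subunit and is needed to insert newly made proteins into the inner membrane, differed more between genotypes than any member. It ran from 24.3 to 30.7 CPM in WT-Veh, 28.4 to 36.6 in WT-aKG, 39.9 to 50.8 in KO-Veh and 43.1 to 62.5 in KO-aKG. No KO library came down to a WT library: the highest of 18 WT libraries was at 36.6 CPM and the lowest of 18 KO libraries at 39.9. No member separated all WT from all KO libraries in this way, and 0.0923% of all tested genes were higher in every KO library. Gadd45gip1 was higher in KO by 0.61 ± 0.07 log2 units (SE) on vehicle and by 0.69 ± 0.08 on dm-αKG, and the adjusted p-values from edgeR were 2.01e-07 and 2.26e-07. Aurkaip1, of the small subunit, rose by 0.42 ± 0.13 (adjusted p = 0.0463, edgeR) with vehicle. That call was near the threshold and ended under 8 other settings. Dap3 (0.03), Ptcd3 (0.10) and Chchd1 (0.26) were not called with vehicle.

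**Figure D3:**
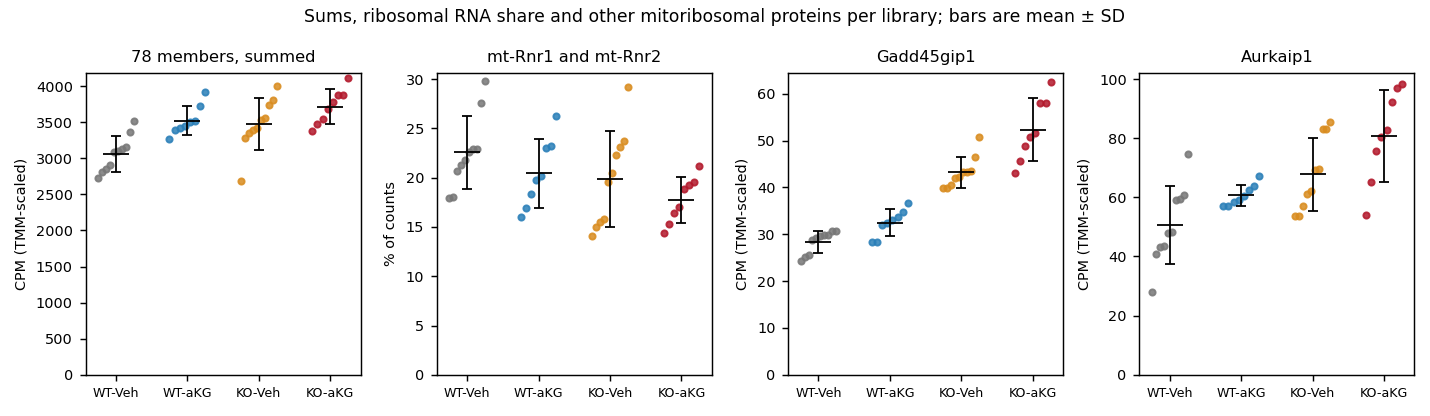
Per-library values with mean ± SD (n = 10, 8, 10 and 8): the summed TMM-scaled CPM of the 78 members, the percentage of counts in mt-Rnr1 and mt-Rnr2, and the CPM of Gadd45gip1 and Aurkaip1. The WT-Veh libraries sum to 2733 to 3512 CPM and the KO-aKG libraries to 3379 to 4108, and for Gadd45gip1 every KO library lies above every WT library.

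With dm-αKG, 4 members were higher in KO than in WT and none lower: Mrpl19 (0.44 ± 0.09, SE), Mrpl21 (0.43 ± 0.08), Mrpl47 (0.40 ± 0.11) and Mrps7 (0.26 ± 0.07), in log2 units. That is 5.13% of the members, against 1.12% of all genes called higher and 0.751% called lower. Their edgeR adjusted p-values were 0.00600, 0.00294, 0.0381 and 0.0383. The median member differed by 0.08, against -0.02 over all genes, and 63 of 78 lay above 0 (46.7% of all genes). At an unadjusted p under 0.05, 21 members were higher and 1 lower (6.95% and 8.76% of all genes). Both genotype comparisons used separate libraries, but came from 1 fit that shares the scaling and the estimate of spread. Mrpl19, Mrpl21 and Mrps7 were called in both. The dm-αKG call of Mrps7 ended in 8 fits without 1 library, and when only those 2 groups were fitted.

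Mrpl21 ran from 30.8 to 35.1 CPM in WT-aKG (median 32.3) and from 35.2 to 55.8 in KO-aKG (median 44.0), without overlap. Mrps30, a large subunit protein particular to mitochondria, was not called (0.25 ± 0.08, SE; edgeR adjusted p = 0.0959), although its ranges of 18.3 to 20.1 CPM in WT-aKG and 20.2 to 27.5 in KO-aKG did not overlap. Of all tested genes, 0.412% were higher in KO-aKG without overlap. Mrpl19 ran from 10.7 to 15.8 CPM in WT-aKG and from 13.2 to 21.2 in KO-aKG, and 6 of 8 KO-aKG libraries exceeded the highest WT-aKG library. Mrpl47 ran from 12.2 to 17.8 and from 17.1 to 27.2 CPM. Its highest library, KO-aKG replicate 8, stood apart at 27.2 with the next at 21.2, and without it the log2 difference was 0.32 ± 0.10 (edgeR adjusted p = 0.125). The lowest log2 differences were those of Mrps21 (-0.26), Mrps24 (-0.18) and Mrpl4 (-0.14), none called. Only the calls of Mrpl19 and Mrpl21 held without each library in turn. The count fell to 2 without WT-aKG replicate 3 or 6 or without KO-aKG replicate 1, 2 or 8, and rose to 7 without KO-Veh replicate 9.

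All 15 members called with vehicle had a positive difference with dm-αKG as well, 11 of them at an unadjusted p under 0.05. Their median log2 difference was 0.36 with vehicle, the comparison that chose them, and 0.24 with dm-αKG. The interaction of genotype and treatment, which tests that change itself, called no member and no gene at all in edgeR, and DESeq2 called no member. At an unadjusted p under 0.05 edgeR gave 3 members (2.07% of all genes in that direction), all with a smaller genotype difference under dm-αKG: Mrps28 (-0.35 ± 0.13, SE), Mrpl23 (-0.24 ± 0.11) and Mrpl27 (-0.23 ± 0.11). Only 20 of the 78 interaction values lay above 0, where 48.6% of all genes did, with a median of -0.08 that became 0.0963 in limma on the deposited CPM, where the median of all genes was 0.17. As none was called, these 3 values are description only. Mrps28, the lowest of the 3, had 31.4 to 40.3 CPM in KO-aKG against 24.8 to 44.2 in WT-aKG, where replicate 3 was the highest.

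Averaged over both treatments, so that all 36 libraries counted, 22 members were higher in KO and none lower, which is 28.2% against 5.7% of all genes called higher and 6.17% called lower. Above 0 lay 65 members, and 46.1% of all genes. Mrpl1, Mrpl13, Mrpl24, Mrpl39, Mrpl43, Mrps15, Mrps16 and Mrps30 were called here and in neither single comparison. Of the 22 calls, 18 held without each library in turn. Those of Mrpl1, Mrpl43, Mrps15 and Mrps30 ended in 21, 3, 19 and 22 of the 36 fits without 1 library. Mrps10 and Mrps23, called with vehicle, were not called in the average. The averaged log2 differences of Mrpl21 and Mrpl19 were both 0.47 ± 0.06 (SE; edgeR adjusted p = 3.16e-07 and 1.33e-06). Among the 8 genes added, Mrpl24 and Mrpl39 had 0.27 each. Mrpl24 ran from 42.8 to 59.3 CPM in KO-aKG and from 36.3 to 46.3 in WT-aKG. The call of Mrpl13 came despite KO-Veh replicate 9, which held 39.8 CPM where the next KO-Veh library held 68.8.

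**Figure D4:**
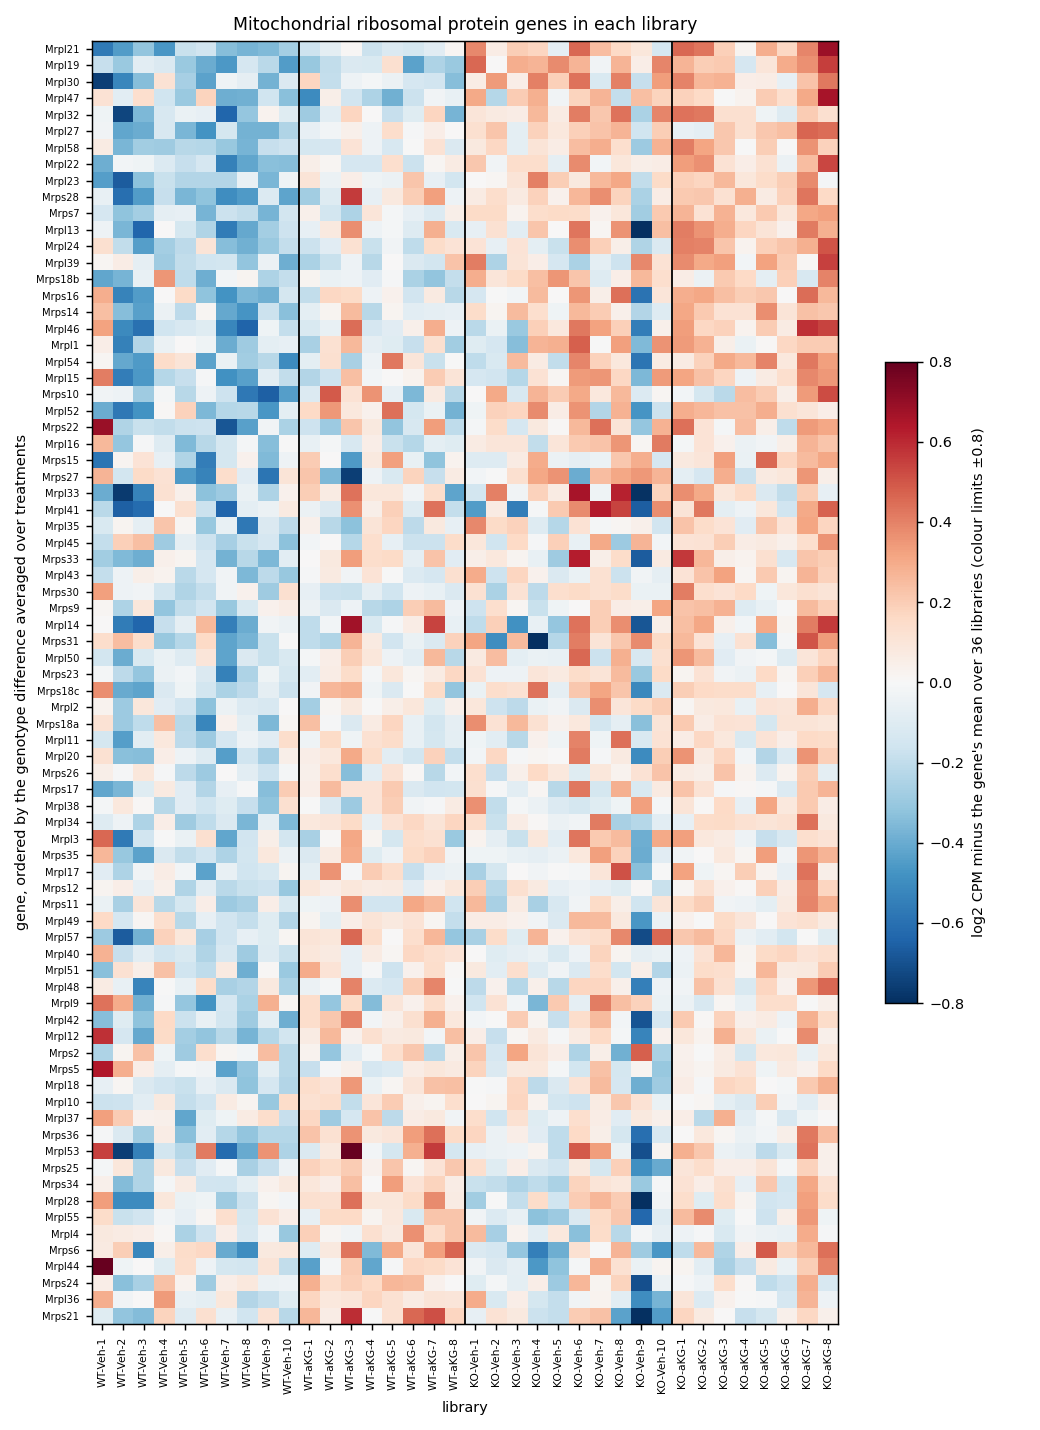
Log2 CPM of each member (rows, ordered by the averaged genotype difference) minus its mean over 36 libraries, in every library (columns, groups separated by lines), with colour limits at ±0.8. The upper rows are mostly blue in WT-Veh and red in both KO groups, and KO-Veh-9 is blue in many rows while WT-aKG-3 is red in many.

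Treatment was compared within genotype. In WT mice no member passed the test after dm-αKG, and no gene of the 16255 did in edgeR (0% called). Of the 78, 71 were above 0 (47.8% of all genes) with a median log2 difference of 0.17, and at an unadjusted p under 0.05 there were 32 higher and 0 lower (4.61% and 3.93% of all genes). DESeq2 called 78 of all genes, of which 7 were members: Mrpl18, Mrpl23, Mrpl27, Mrpl34, Mrpl42, Mrps28 and Mrps36. This comparison shares the WT-Veh libraries with the vehicle genotype comparison, so the values of both rest on them.

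Mrps36, which links the subunits of α-ketoglutarate dehydrogenase and so belongs to the enzyme that consumes α-ketoglutarate, was among the largest. It ran from 23.2 to 30.4 CPM in WT-Veh (median 24.99) and from 31.0 to 39.8 in WT-aKG (median 33.4), without overlap; 0.0677% of all tested genes were higher in WT-aKG without overlap. The log2 difference was 0.40 ± 0.08 (SE; edgeR adjusted p = 0.135, DESeq2 adjusted p = 0.00318). In KO mice it ran from 19.3 to 33.0 CPM with vehicle and from 28.3 to 39.2 with dm-αKG, a log2 difference of 0.17 ± 0.08 (edgeR adjusted p = 0.431). Reads of Mrps36 are uncertain, since Mrps36-ps1 and Mrps36-ps2 were also counted (means of 62.2 and 33.8 counts in WT-Veh, 80.2 and 41.5 in WT-aKG), and the estimated count of Mrps36 was whole in only 5 of 36 libraries. Of the genes for the 3 enzymes of the complex, Ogdh differed by 0.06 ± 0.09 (SE) in WT, Dlst by 0.05 ± 0.08 and Dld by -0.04 ± 0.15, and Ogdhl, a relative of Ogdh, by -0.20 ± 0.12, none called by edgeR.

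Mrps28 differed by 0.44 ± 0.09 (SE; edgeR adjusted p = 0.135) between WT-aKG and WT-Veh. Its highest library, WT-aKG replicate 3 at 44.2 CPM, contributed: without it the difference was 0.36 ± 0.09 (adjusted p = 0.303, edgeR). Mrps21, which belongs to the small subunit, had 0.37 ± 0.11 in log2 units, with 42.7 to 61.2 CPM in WT-Veh and 54.0 to 81.6 in WT-aKG. The lowest log2 differences in WT were those of Mrpl44 (-0.15 ± 0.14), Mrps30 (-0.07 ± 0.07) and Mrpl47 (-0.05 ± 0.10). That of Mrpl44 was 0.03 ± 0.10 without WT-Veh replicate 1. In KO mice 0 members were called by edgeR or DESeq2 (0% of all genes by edgeR). There 64 of 78 lay above 0 (48.4% of all genes), with a median of 0.09. At an unadjusted p under 0.05, 13 members were higher and 0 lower (5.76% and 6.38% of all genes). The largest was Mrps6 at 0.34 ± 0.13 (SE), with 17.5 to 31.0 CPM in KO-Veh and 21.7 to 35.9 in KO-aKG. Mrpl24 (0.26 ± 0.09) and Mrpl14 (0.25 ± 0.14) of the large subunit came next, and Mrps27 (-0.10 ± 0.13), Mrpl16 (-0.07 ± 0.08) and Mrps18b (-0.07 ± 0.09) stood lowest in log2 difference. Exons of Mrps6 overlap Slc5a3 on the same strand, and its estimated count was whole in only 4 of 36 libraries.

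**Figure D5:**
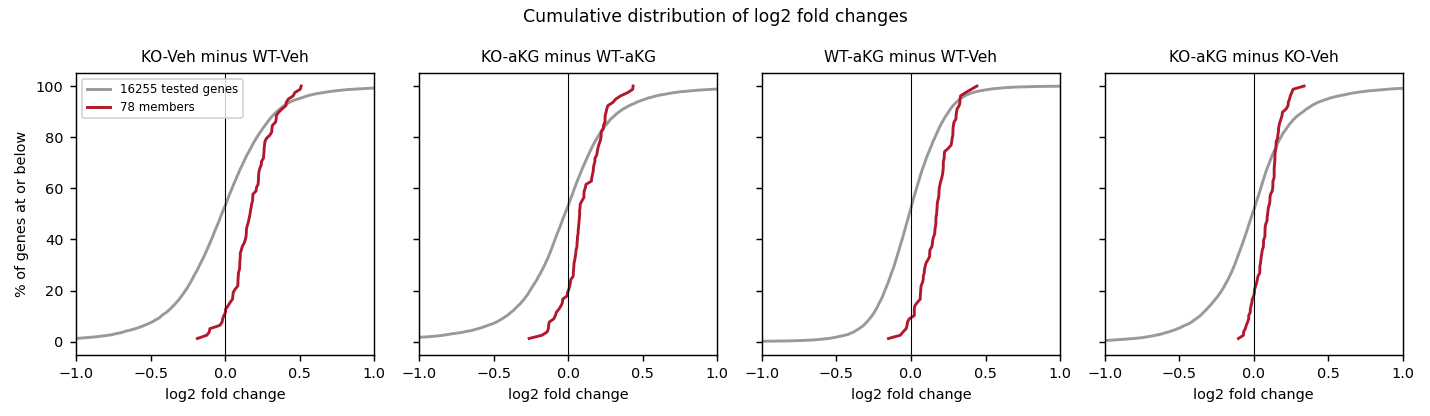
Cumulative percentage of genes (vertical axis) at or below each log2 fold change (horizontal axis, shown from -1 to 1) for the 78 members in red and all 16255 tested genes in grey, in the 4 comparisons of groups. The members' curve crosses 0 at a lower percentage than that of all genes in each panel, with medians of 0.17, 0.08, 0.17 and 0.09.

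A pair of other gene families was compared. The first was taken by symbol, as Rpl or Rps followed by digits, without symbols holding -ps. That rule admits cytosolic ribosomal proteins but also other genes with such symbols, as kinases named after a ribosomal protein, and none were removed. These 98 genes had a median log2 difference of 0.27 with vehicle (3 called higher, where 2.6% of all genes were) and of 0.21 after dm-αKG in WT. The 42 nuclear genes of respiratory complex I had 0.21 (5 called higher, 1 of them the pseudogene Ndufa12-ps) and 0.29 (0 called by edgeR). With vehicle 90 of the 98 and 36 of the 42 lay above 0. Averaged over treatments, 8 of the 98 and 9 of the 42 (Ndufa12-ps among them) were called higher, against 5.7% of all genes. Lower there were 0 and 1, against 6.17% of all genes. The median interaction was -0.18 and -0.16, where that of the members was -0.08. In the genotype comparison with dm-αKG the median was 0.08 for the 98 Rpl and Rps symbols, with 77 above 0. For complex I it was -0.00, with 21 of 42 above 0, and edgeR called none of either. When the mean level of the 98 Rpl and Rps symbols was added to the fit, 13 members were called with vehicle and the median was 0.14. Mrpl32, Mrps10, Mrps14, Mrps18b and Mrps23 lost their calls, so the 13 include members outside the 15 called without that level. The number of all genes called in that fit is not given here. The mitochondrial ribosomal RNAs were not called higher: mt-Rnr1 differed by -0.16 ± 0.25 (SE) and mt-Rnr2 by -0.13 ± 0.20 with vehicle, and neither was called in any comparison by edgeR. Both together took 17.9% to 29.8% of counts in WT-Veh, 16.02% to 26.2% in WT-aKG, 14.1% to 29.3% in KO-Veh and 14.4% to 21.2% in KO-aKG. These libraries select polyadenylated RNA, so this share is not the ribosome's RNA content. With that share in the fit, 24 members and 2808 of all genes were called with vehicle, against 15 and 701 without it. The part of either family or of this share in the members' differences was not tested further.

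Medians of region markers lay away from 0 between the genotypes. The 20 cerebellum markers had a median log2 difference of -1.09 with vehicle (0 of 20 above 0) and -1.89 with dm-αKG, with 0 called by edgeR. With vehicle the medians of the other regions were -1.90 for midbrain and hindbrain, -0.95 for choroid plexus, -0.53 for thalamus, 0.31 for hippocampus, 0.58 for cortex, 0.73 for striatum and 0.82 for hypothalamus, and edgeR called none of these markers. With dm-αKG the hypothalamus median was 2.12, and Hcrt and Pmch, which encode neuropeptides of the hypothalamus, were called higher. Within groups, 19 members rose and 6 fell with the cerebellum score (24.4% rising, against 29% of all genes called higher and 28.6% called lower). Of the 15 genes called with vehicle, Mrps28 rose with that score and Mrpl30 and Mrps18b fell. Without the 9 libraries high in cerebellum markers 14 members were called with vehicle, and the number of all genes called there is not given here. Without KO-Veh replicate 7 alone, 1 of those 9, 18 members and 741 of all genes were called higher, against 15 and 422 with it. With scores of 5 regions in the fit 24 members and 2010 of all genes were called with vehicle. With dm-αKG 3 members were called without those 9 libraries, of which Mrpl21 was the only one of the 4 named above. There the log2 differences and edgeR adjusted p-values were 0.36 and 0.0826 for Mrpl19, 0.48 and 0.0512 for Mrpl47, and 0.22 and 0.141 for Mrps7. Among cell type markers with vehicle, the medians were -0.61 for myelin, -0.39 for mural cells and fibroblasts (Lum called lower), -0.27 for oligodendrocyte precursors and -0.18 for astrocytes (Aqp4 and Slc7a10 called lower). They were -0.02 for neurons, -0.02 for endothelium, 0.01 for microglia and 0.06 for blood. The part of regions and cell types in the members' differences was not tested beyond these fits. In whole tissue, fewer cells of a type and less RNA per cell cannot be told apart.

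Some of the factors that build and serve this ribosome were also called; over all genes 2.6% were called higher with vehicle. Of 16 mitochondrial translation factors, Mtrf1 (0.39 ± 0.11, SE), a release factor, and Slirp (0.37 ± 0.10), which stabilises mitochondrial mRNA, rose with vehicle and none fell. Among 28 assembly factors, Malsu1 (0.38 ± 0.10), which binds the maturing large subunit, and Trub2 (0.55 ± 0.11), a pseudouridine synthase, rose. Spg7 fell by 0.49 on the log2 scale (SE 0.12; edgeR adjusted p = 0.0278) with dm-αKG, from 41.6 ± 6.44 CPM (SD, n = 8) in WT-aKG to 29.7 ± 4.40 (n = 8) in KO-aKG. Spg7 encodes a subunit of the m-AAA protease that cuts Mrpl32. None of 17 mitochondrial aminoacyl-tRNA synthetase genes was called in either genotype comparison by edgeR. Of 18 genes of mitochondrial transcription and RNA handling, Tfb2m (0.33 ± 0.08), a transcription initiation factor, and Tefm (0.55 ± 0.15), the elongation factor, rose with vehicle. Averaged over treatments, Mtg1 (0.25 ± 0.08, SE), Ngrn (0.21 ± 0.06), Tfam (0.18 ± 0.06) and Grsf1 (0.21 ± 0.06) of these lists were called higher too. Tufm, the elongation factor Tu of mitochondria, and Polg, the mitochondrial DNA polymerase, were called lower there, with log2 differences of -0.26 ± 0.07 and -0.23 ± 0.07. Spg7 was called lower in the average as well. In that average 5.7% of all genes were called higher and 6.17% lower.

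No regulator of mitochondrial biogenesis was called higher. Of 10 such genes 0 were called higher and 1 lower with vehicle: Ppargc1a, which encodes the coactivator PGC-1α, fell by 0.37 on the log2 scale (SE 0.09; edgeR adjusted p = 0.0191). It was at 36.6 to 48.0 CPM in WT-Veh and 26.1 to 39.1 in KO-Veh. Averaged over treatments, 0 of the 10 were called higher and 3 lower: Gabpb2, Ppargc1a and Ppargc1b. Over all genes 5.7% were called higher and 6.17% lower in that average. Nrf1 (0.16 ± 0.11, SE), Gabpa (-0.19 ± 0.13) and Yy1 (-0.14 ± 0.09), transcription factors known to act on genes of mitochondrial proteins, were not called. Of 11 mitochondrial stress genes, 2 were higher in KO under both treatments: Atf5, a transcription factor of the mitochondrial stress response, by 1.04 ± 0.12 with vehicle and 0.93 ± 0.14 with dm-αKG, and Hspa9, the chaperone that pulls imported proteins into the matrix, by 0.36 ± 0.10 and 0.59 ± 0.11. Of 32 targets of ATF4, 23 rose with vehicle. Within groups no member was called on the ATF4 target score by edgeR, where 0.0738% of all genes rose and 0.0123% fell, and 1 member was higher and 7 lower at an unadjusted p under 0.05 (5.11% and 5.99% of all genes).

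Promoters were compared because all calls among the members went in 1 direction. RefSeq promoters (build GRCm38.p6, 250 bases before to 50 after the start) were found for 69 members and 17492 coding genes in all. On either strand, the ETS family letters CCGGAAG occurred in 36.2% of member promoters and 11.9% of all coding promoters. The NRF1 motif occurred in 18.8% against 6.6%, and a short form of the YY1 motif, ANATGGCG, in 15.9% against 4.75%. The letters TGATGNAA, which C/EBP-ATF dimers can bind, were in 0% of member promoters and 3.69% of all. Of the 15 genes called with vehicle, 13 were in the table and 8 held at least 1 of these motifs, which is 61.5%, against 41 of all 69 members found, or 59.4%.

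The 100 bases before the start are printed for the 5 called genes with a complete motif there, 5′ to 3′ on the gene's strand, with motif letters in capitals. ETS letters lie in Mrpl22 (chr11:58171564-58171663, plus strand), Mrpl27 (chr11:94653691-94653790, plus) and Mrpl58 (chr11:115403652-115403751, plus), where a second match runs across the start. NRF1 letters lie in Mrpl30 (chr1:37890377-37890476, plus) and in Mrpl32 (chr13:14613038-14613137, minus), in which they read the same on both strands.
Mrpl22: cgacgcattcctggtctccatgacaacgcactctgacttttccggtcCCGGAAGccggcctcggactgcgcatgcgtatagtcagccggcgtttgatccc
Mrpl27: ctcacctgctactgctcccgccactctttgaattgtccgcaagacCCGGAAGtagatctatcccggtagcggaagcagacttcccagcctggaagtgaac
Mrpl58: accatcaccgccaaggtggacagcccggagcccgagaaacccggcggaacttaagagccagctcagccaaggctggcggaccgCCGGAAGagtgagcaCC
Mrpl30: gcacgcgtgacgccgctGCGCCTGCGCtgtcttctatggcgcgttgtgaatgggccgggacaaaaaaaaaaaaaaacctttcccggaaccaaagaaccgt
Mrpl32: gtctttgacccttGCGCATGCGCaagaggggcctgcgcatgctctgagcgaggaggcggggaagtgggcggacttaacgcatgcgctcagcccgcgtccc
In Mrpl27 and Mrpl22 the ETS letters began 55 and 53 bases before the start, and in Mrpl32 and Mrpl30 the NRF1 letters began 87 and 83 bases before it. Mrpl21, Mrps18b and Mrps23 held ETS letters only after the start. Mrps7, called in both genotype comparisons, held none of the letters searched. A match of letters shows neither binding nor use.

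Some members share reads or exons with other genes. In the GENCODE M21 annotation 33 of 78 members have exons that overlap another gene, 6 of them among the 15 called with vehicle, where every partner lies on the opposite strand. The sources used here do not say whether counting used strand. For Mrpl21 the partner is Ighmbp2, which had 3.09 ± 0.631 CPM (SD, n = 10) among WT-Veh libraries and 2.86 ± 0.562 (n = 10) among KO-Veh ones. For Mrpl19 it is Gcfc2, which had 2.95 ± 1.29 and 2.55 ± 0.790 CPM (SD, n = 10 each). Mrps7 overlaps Gga3 and Mif4gd, whose log2 differences were -0.22 and -0.17. None of these partners was called, and each lay lower in KO-Veh than in WT-Veh. Eme1, Ict1os and Gm16279, the partners of Mrpl27, Mrpl58 and Mrps18b, were too low to test. Mrpl23 has a counted pseudogene, Mrpl23-ps1, with means of 304 counts in WT-Veh and 388 in KO-Veh, the same direction as Mrpl23. The estimated count of Mrpl23 was whole in only 21 of 36 libraries and that of Mrpl21 in 17, so their reads are uncertain too. Among the 15 called genes, the estimated counts were whole numbers in at least 30 of 36 libraries for 4: Mrps7 and Mrpl58 in all, Mrps28 in 35 and Mrpl16 in 32. Mrps31 and Mrpl34 lie on chromosome 8, as does Gpt2, and edgeR called neither in any comparison.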

How the data were processed

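RNA from 10 mg of brain was captured with oligo-dT primers that carried UMIs (unique molecular identifiers) beside a barcode for each sample, then tagmented, per the labels' protocols. HISAT2 2.2.1 and featureCounts 2.0.6 are named, with Trim Galore 0.6.10, deepTools, SAMtools 1.6 and the builds mm10 and mm39, per the submitters' processing notes. The sources used here do not say which build each step used, or whether strand was used or UMIs were collapsed. The authors deposited estimated counts per gene as whole numbers, and a table of CPM. Turned back into counts, at least 81.4% of a library's CPM values above 0 are whole within 0.02 and the rest fractional.

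Counts were fitted in edgeR 4.0.16 (filterByExpr, TMM, robust quasi-likelihood, 36 libraries in 4 groups, no covariates) with Benjamini-Hochberg adjustment over 16255 genes, and checked on simulated data. DESeq2 1.42.0, limma 3.58.1 on log2(CPM + 0.5) and log2(CPM + 2), region scores, sex inferred from Xist and Ddx3y, leaving out libraries, and 2 covariates chosen after seeing the data were alternatives. P-values reflect only how much these samples vary. Counts per member and library were at least 37, and precision falls with lower counts.

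The members and lists were chosen with earlier results of these data known. Named are members called in any of 6 contrasts, the 3 highest and 3 lowest in each comparison of 2 groups, the 3 highest and 3 lowest levels, Mrps36, Mrps30 and the Mrps18 genes, 3 small lists in full and up to 6 called genes of each other list. Mrpl18, Mrpl34 and Mrpl42 fall outside that rule and were named after their values were seen. The labels do not tie replicate numbers to a shared source, and not every pair of libraries with the same number deviated together, so numbers were not used as pairs. Promoters came from RefSeq (GRCm38.p6), and overlaps and lengths from GENCODE M21. No 2 libraries of a group held identical counts.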

Additional observations from a re-analysis of the deposited data

Results flagged for a closer look

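Single libraries stood apart from their group in 12 of 184 groups of values examined (45 named genes and the summed member level, 4 groups each), by the gap to the next library relative to the group's range. Chance gives about 1 in 20, which is 9.2 of 184.

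In WT-Veh, replicate 1 held 4 of the 12: Mrpl44 was at 44.3 CPM with the next library at 21.6, Mrpl16 at 26.2 with the next at 21.8, Mrpl58 at 38.6 with the next at 32.9, and Mrps18c at 85.2 with the next at 64.3. That library also had the highest cerebellum score of all 36 (7.41), and the part of that score in these values was not tested. Mrps18b in WT-Veh replicate 4 was at 9.01 CPM with the next at 7.13. In KO-Veh, replicate 9 was low for Mrpl13 at 39.8 CPM with the next at 68.8, and for Mrps7 at 32.5 with the next at 40.2. Its TMM factor, by which these values are divided, was the largest of all 36 libraries (1.35). Without that library the vehicle log2 difference of Mrpl13 was 0.42 ± 0.09 (SE; edgeR adjusted p = 0.0038).

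In KO-aKG, Mrpl47 was at 27.2 CPM in replicate 8 with the next at 21.2, and Ptcd3 in the same library at 24.9 with the next at 18.2. Mrpl4 was at 53.5 CPM in replicate 7 with the next at 43.3, and Mrps30 at 27.5 in replicate 1 with the next at 23.1. Mrps18a was low in replicate 5, at 33.8 CPM with the next at 38.7.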

How the results depend on the processing

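No value changed its direction where it had been called. For the vehicle genotype difference (15 members), limma on log2(CPM + 0.5) and log2(CPM + 2) called 4 and 4, the fit of those 2 groups alone 9, and fits with region scores or with the ribosomal RNA share 24 and 24. For the difference with dm-αKG (4 members), edgeR called 2 without the low-count filter, 2 with those groups alone, and 7 and 7 with region scores or the ribosomal RNA share. Leaving out 1 library gave 11 to 20, 2 to 7 and 18 to 27 members for vehicle, dm-αKG and the average. Calls over all genes moved as well, from 440 to 1662 for vehicle and from 133 to 362 for dm-αKG. Counts of members from different fits, here and in the next paragraph, are therefore not directly comparable. For the fits with other settings the numbers of all genes called are not given in this section. After dm-αKG in WT, DESeq2 called 7 members, and fits with region scores and the ribosomal RNA share called 9 and 6. The slope on the cerebellum score had 15 calls without the filter, in place of 25. The causes were not tested.

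The deposited CPM carry no TMM scaling, which moved the median of all genes. With limma at pseudocounts of 0.5 and 2, the members' median log2 difference was 0.24 and 0.23 with dm-αKG (all genes 0.15 and 0.12), 0.25 and 0.24 for treatment in KO (all genes 0.14 and 0.11), and 0.0963 and 0.0923 for the interaction (all genes 0.17 and 0.14), where edgeR gave -0.08. The interaction's median thus has either sign, and is below that of all genes in each case. With the replicate number as a block, 13 members were called with vehicle, 3 with dm-αKG and 21 in the average, and the block ended the calls of Mrps14, Mrps23 and Mrpl47 in single comparisons and of Mrpl1 and Mrps15 in the average. Over 50 pairs of equal number the deviations correlated at a median of 0.107 (26 over 0.1), against -0.0164 over 434 pairs of unequal number, and 8 of 36 libraries correlated best with their own number. The ribosomal RNA share and the mean level of the Rpl and Rps symbols were added after seeing the data. Fractional counts, unknown strand use and region markers that vary between libraries limit single members, above all those at low counts.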
